A study of Mus musculus with 9 samples.

Results

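The HoxC cluster is a row of 9 homeobox genes that lie side by side on mouse chromosome 15. Its members, Hoxc4, Hoxc5, Hoxc6, Hoxc8, Hoxc9, Hoxc10, Hoxc11, Hoxc12 and Hoxc13, were taken by name, and each was measured by 1 probe set of the array that the array annotation pairs with that gene alone. They are 9 of the 22180 genes that have such a probe set. Expression was profiled in 9 muscles, each on 1 array. The mice were male, 12 weeks old and of the inbred strain C57BL/6J, with no treatment named in the labels. The masseter and digastric formed the head group (n = 2), the trapezius, supraspinatus and triceps the shoulder and forelimb group (n = 3), and the soleus, gastrocnemius, tibialis anterior and rectus femoris the hindlimb group (n = 4), a grouping that rests on general anatomy. The labels do not say whether an array holds RNA of 1 animal or of several, nor whether the muscles came from the same animals. Each SD is therefore a spread between different muscles of a region, and p-values measure only that spread.

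Hox genes encode transcription factors that give cells an address along the body axis. Along the trunk the genes of a cluster are used in the order in which they lie on the chromosome. Genes at the 3′ end (low numbers) are active from the neck downwards, and genes at the 5′ end (high numbers) mainly in the lumbar, sacral and tail regions. Muscles of the jaw arise from head mesoderm, which lacks Hox expression in the embryo, while limb muscles arise from somites at forelimb or hindlimb level. Positional memory, named in the series title, is the persistence of such addresses in adult muscle.

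The cluster also holds noncoding genes. By the order of the RefSeq gene table, Mir196a-2 lies between Hoxc10 and Hoxc9, Mir615 within Hoxc5, and the long noncoding RNA Hotair between Hoxc12 and Hoxc11. The microRNA miR-196a is known to repress Hox messages, among them that of Hoxc8, the next coding gene but one from its locus. The sequences of both microRNA genes were matched by symbol in the RefSeq table (GRCm38.p6), and the hairpin of Mir196a-2 is shown because its probe set lies between the pair of genes with the largest differences between hindlimb and shoulder and forelimb. In the hairpin, which is at chr15:102973350-102973434 on the plus strand, capitals mark the 2 mature arms. In the mature sequences capitals mark the seed, bases 2 to 8, which pairs with target messages.
microRNA 196a-2 hairpin: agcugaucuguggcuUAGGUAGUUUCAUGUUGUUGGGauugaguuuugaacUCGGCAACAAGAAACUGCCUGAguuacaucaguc
mmu-miR-196a-5p: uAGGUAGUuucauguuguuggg
mmu-miR-196a-2-3p: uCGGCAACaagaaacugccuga
The 5p arm is the one known for its Hox targets.

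All values below are log2 expression values as deposited, so that a difference of 1 is a doubling of the unlogged value. Array medians over all probe sets lay between 3.34 and 3.44, and values near or below them cannot be told from background. Hoxc5 and Hoxc13 were below the median of the array in 9 of 9 arrays, Hoxc6 and Hoxc8 in 5, Hoxc11 in 4, Hoxc10 in 3, Hoxc9 in 2, Hoxc12 in 1 and Hoxc4 in 0. In the head arrays no HoxC gene exceeded the array median by more than 0.32, and differences between such low values can be compressed. The triceps, rectus femoris and gastrocnemius arrays had a narrower spread of values than the other 6 (SD over probe sets 1.92 to 1.96 against 2.03 to 2.08). Levels are compared between muscles for 1 gene at a time and not between genes, because probe sets differ in response. Genes that every skeletal muscle uses were high in every array, with Acta1 (skeletal actin) from 12.76 to 12.94 and Ckm (muscle creatine kinase) from 12.12 to 12.85.

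At the 3′ end of the cluster the differences between muscles were small. Hoxc4, a gene of cervical identity in the embryo, was at 3.58 in masseter and 3.57 in digastric, at 4.05 in trapezius, 3.77 in supraspinatus and 4.13 in triceps, and at 4.33 in rectus femoris, 3.98 in tibialis anterior, 3.96 in soleus and 4.41 in gastrocnemius. All 7 non-head arrays lay above both head arrays, while the shoulder and forelimb range overlapped the hindlimb range. The 3 highest Hoxc4 values were those of the 3 arrays of narrower spread. Within regions these arrays lay 0.33 above the others for Hoxc4, against a median of 0.06 over all genes, and the part of array spread in the Hoxc4 values was not tested.

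Hoxc5 varied least of the 9 genes. It was at 2.06 in masseter and 2.49 in digastric, at 2.27 in trapezius, 2.19 in supraspinatus and 2.42 in triceps, and at 2.51 in rectus femoris, 2.50 in tibialis anterior, 2.50 in soleus and 2.52 in gastrocnemius. The 4 hindlimb arrays lay above all others, by only 0.014 over digastric, and every value was below the array median.

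Hoxc6, whose domain in the embryo begins near the level of the forelimb, gave the widest spread within regions. It was at 2.47 in masseter and 2.56 in digastric, the lowest arrays. The shoulder and forelimb arrays were at 2.85 in trapezius, 3.07 in supraspinatus and 4.05 in triceps. Among hindlimb arrays it was at 4.70 in rectus femoris, 4.67 in soleus and 4.32 in tibialis anterior, and at 3.24 in gastrocnemius. Triceps thus lay above gastrocnemius by 0.82, more than the residual SD within regions (0.61), and the Hoxc6 order of the muscles did not follow the regions. No other neighbours in the Hoxc6 order differed by more than that SD. A difference between arrays varies more than a single array does. Here and below, a gap above the residual SD is therefore a description and not a test.

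Hoxc8, a gene of thoracic and brachial identity, was low in the head and in the shoulder and forelimb and higher in the hindlimb. It was at 2.72 in masseter and 2.74 in digastric, at 3.07 in trapezius, 2.98 in supraspinatus and 3.19 in triceps, and at 4.03 in rectus femoris, 3.80 in tibialis anterior, 3.57 in soleus and 4.10 in gastrocnemius. No array of a region overlapped another region. Hoxc8 was the only HoxC gene with this complete order, which 44 of all 22180 genes showed (0.198%). All 5 head and shoulder and forelimb values were below the medians of their arrays, so the order between these regions lies within the range that cannot be told from background. The gaps between digastric and supraspinatus (0.23) and between triceps and soleus (0.38) exceeded the residual SD of 0.18. So did the gaps between rectus femoris and tibialis anterior (0.23) and between tibialis anterior and soleus (0.23). Within regions the arrays of narrower spread lay 0.295 above the others for Hoxc8, against a median of 0.057 over all genes. Gastrocnemius and rectus femoris, the highest for Hoxc8, are among these arrays. The part of array spread in the Hoxc8 values was not tested.

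At Hoxc9, Hoxc10 and Hoxc11 the shoulder and forelimb range overlapped the head range, and the hindlimb arrays stood above both. Hoxc9, which marks thoracic levels of the trunk in the embryo, was at 3.48 in masseter and 3.25 in digastric, and at 3.44 in trapezius, 3.10 in supraspinatus and 3.58 in triceps. In the hindlimb it was at 4.96 in rectus femoris, 4.89 in tibialis anterior, 4.59 in soleus and 4.0 in gastrocnemius. Gastrocnemius was the lowest hindlimb array for Hoxc9, as for Hoxc6, and the highest for Hoxc8. It lay 0.59 below soleus and 0.42 above triceps, both more than the residual SD of 0.35.

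Hoxc10, a gene of the lumbar region and hindlimb that specifies motor neurons of the leg together with its paralogues, differed most. It was at 3.06 in masseter, 3.30 in digastric, 3.39 in trapezius and 3.22 in supraspinatus, 4 values within 0.33 of each other and near background. Triceps was at 4.14, which is 0.75 above trapezius and more than the residual SD of 0.43. The hindlimb arrays were at 6.97 in rectus femoris, 7.84 in tibialis anterior, 7.07 in soleus and 6.85 in gastrocnemius. The gap of 2.71 between gastrocnemius and triceps was the widest between any neighbours in the order of any HoxC gene. Tibialis anterior stood 0.78 above soleus, while soleus, rectus femoris and gastrocnemius lay within 0.22 of each other.

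Hoxc11, the next gene towards the 5′ end and also a gene of the hindlimb bud, had the same split in a smaller range. It was at 3.15 in masseter, 2.95 in digastric, 2.88 in trapezius and 3.22 in supraspinatus, and at 3.48 in triceps. Hindlimb values were 3.97 in rectus femoris, 4.09 in tibialis anterior, 4.45 in soleus and 4.08 in gastrocnemius, all above every other array. Soleus was the highest, by 0.36, and triceps was again the highest array outside the hindlimb, 0.48 below rectus femoris.

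At the 5′ end the regional pattern was not seen. Hoxc12 was at 3.32 in masseter, 3.69 in digastric, 3.48 in trapezius, 3.81 in supraspinatus, 3.80 in triceps, 3.85 in rectus femoris, 3.54 in tibialis anterior, 3.61 in soleus and 4.28 in gastrocnemius. Its regions overlapped throughout, and as for Hoxc4 and Hoxc8 the arrays of narrower spread lay higher within regions, by 0.36. Hoxc13, best known for its role in hair and nails, was between 2.61 in supraspinatus and 3.34 in soleus, with masseter at 3.0, digastric at 3.05, trapezius at 3.12, triceps at 3.10, rectus femoris at 3.10, tibialis anterior at 3.09 and gastrocnemius at 3.07. Of these 9 values 7 lay within 0.13 of each other.

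**Figure D1:**
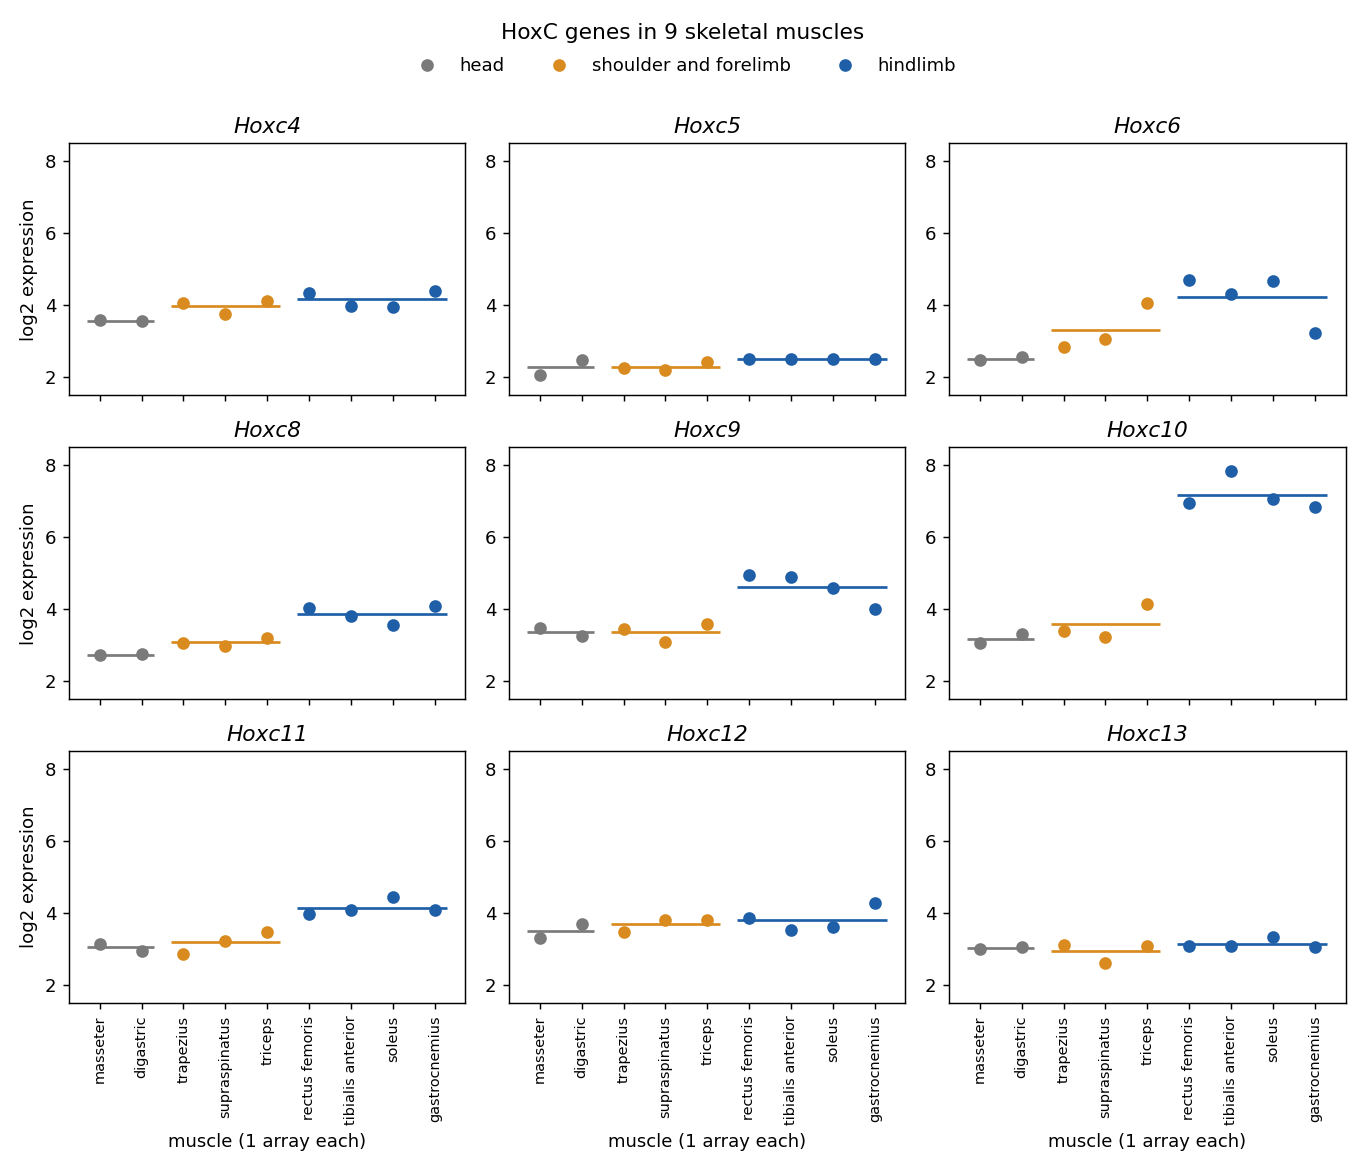
Log2 expression (y axis) of each HoxC gene in 9 muscles (x axis, 1 array each), with horizontal lines at the mean of each region. The 4 hindlimb arrays stand between 6.85 and 7.84 for Hoxc10 and all other arrays at or below 4.14, while the values of Hoxc5 span 0.46 and those of Hoxc13 0.73. Points are to be compared within a panel.

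To set the cluster in 1 picture, each value was taken relative to the mean of the 2 head arrays for that gene. In trapezius and supraspinatus the largest such difference was 0.55 (Hoxc6 in supraspinatus). In triceps Hoxc6 stood 1.54 and Hoxc10 0.96 above the head mean, with Hoxc4 at 0.56, Hoxc8 at 0.46, Hoxc11 at 0.43 and Hoxc9 at 0.21. In the hindlimb arrays Hoxc10 stood 3.67 to 4.66 above the head mean, and the differences were smaller on both sides of it, from 0.64 to 1.59 for Hoxc9 and from 0.92 to 1.40 for Hoxc11. Hoxc6 stood 1.81 to 2.18 above the head mean in 3 hindlimb arrays and 0.72 in gastrocnemius. Because the probe sets respond differently and low values are compressed, the size of a difference at one gene is not a measure of its expression relative to another.

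**Figure D2:**
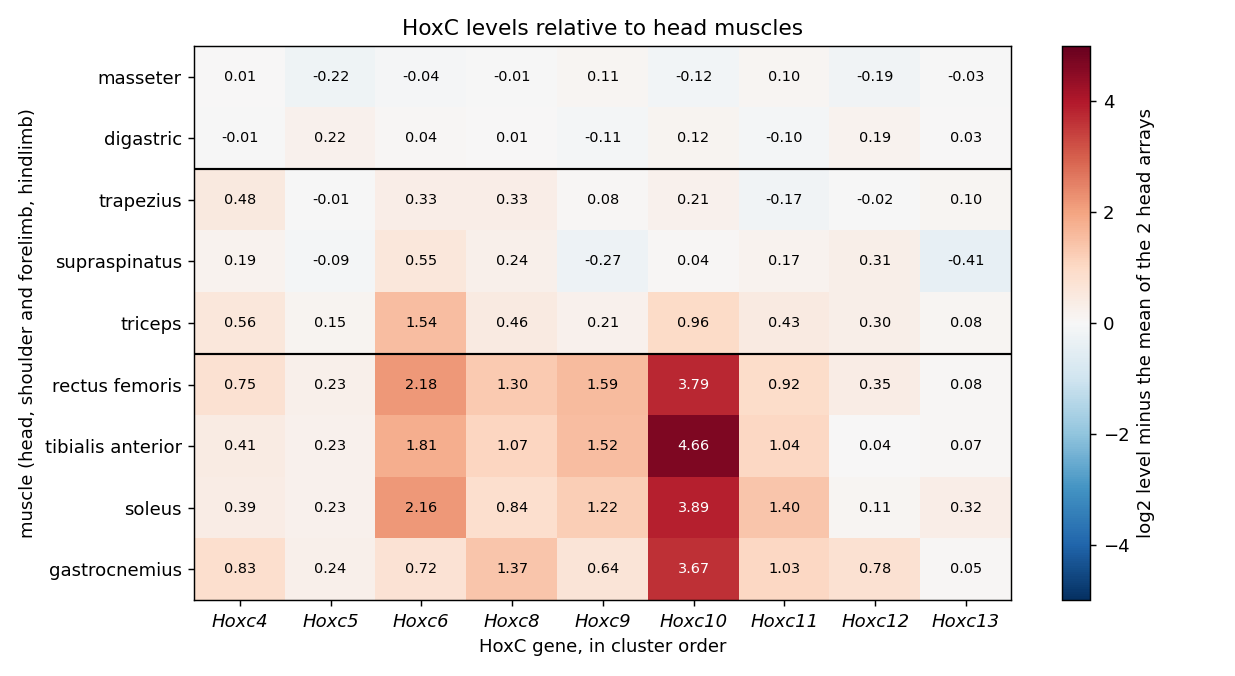
Log2 level of each HoxC gene (columns, in cluster order from Hoxc4 to Hoxc13) in each muscle (rows) minus the mean of both head arrays, printed in each cell and coloured from blue (lower) to red (higher). The hindlimb rows are reddest at Hoxc10 (3.67 to 4.66), and the triceps row shows 1.54 at Hoxc6 and 0.96 at Hoxc10.

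The first comparison asked how shoulder and forelimb muscles differ from head muscles in HoxC expression. By limma's moderated test with Benjamini-Hochberg adjustment over all genes, 0 of the 9 HoxC genes passed, as did 0% of all 22180 genes in either direction. Without adjustment, 702 genes were higher and 832 lower at p under 0.05 in the limma test, with 0 of the 9 HoxC genes among them. Every shoulder and forelimb array lay above both head arrays for 3 HoxC genes, Hoxc4, Hoxc6 and Hoxc8, against 15.2% of all genes. Their differences were 0.41 for Hoxc4 (SE 0.20, 95% interval -0.03 to 0.85), 0.81 for Hoxc6 (SE 0.45, 95% interval -0.18 to 1.80) and 0.34 for Hoxc8 (SE 0.19, 95% interval -0.08 to 0.77). Without triceps the Hoxc6 difference was 0.44. The Hoxc9 difference was 0.01 (95% interval -0.61 to 0.63) and that of Hoxc10 was 0.40 (95% interval -0.33 to 1.14). The Hoxc10 value rested on triceps, since the difference was 0.13 without it. The median over the 9 genes was 0.20, beside 0.04 over all genes.

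The next comparison set the hindlimb against the shoulder and forelimb, and the largest HoxC differences were those of Hoxc10, Hoxc9 and Hoxc11. Hoxc10 was higher in hindlimb muscles by 3.60 (SE 0.28, 95% interval 2.98 to 4.21, limma adjusted p = 0.00206). It was the only gene of all 22180 to pass (0.00451%), in either direction. Without adjustment 408 genes were higher and 402 lower at p under 0.05 by limma, 5 of the 9 HoxC genes among the former. Hoxc9 (1.24, SE 0.23, 95% interval 0.72 to 1.75), Hoxc11 (0.95, SE 0.18, 95% interval 0.55 to 1.36) and Hoxc8 (0.80, SE 0.16, 95% interval 0.44 to 1.15) did not pass over all genes, each with an adjusted p of 1. By the unadjusted limma p, Hoxc10 was 1st, Hoxc9 4th, Hoxc11 5th and Hoxc8 6th of all 22180 genes. Hoxc6 differed by 0.91 (95% interval 0.08 to 1.74), and the intervals of Hoxc4 (0.19), Hoxc5 (0.22), Hoxc12 (0.12) and Hoxc13 (0.20) included 0. The 4 hindlimb arrays were all above the 3 shoulder and forelimb arrays for 5 of the 9 genes, against 2.32% of all genes. These were Hoxc8 to Hoxc11 and Hoxc5, and Hoxc5 was below the median of the array in every array. In bulk muscle, fewer cells that express a gene and less RNA per cell cannot be told apart.

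Within the arrays of like spread these differences kept their sign for Hoxc8 to Hoxc11. Between rectus femoris and gastrocnemius on one side and triceps on the other, all of narrower spread, they were 0.88 for Hoxc8, 0.90 for Hoxc9, 2.77 for Hoxc10 and 0.54 for Hoxc11, an alternative chosen after seeing the data. In the 6 arrays of wider spread they were 0.66, 1.47, 4.15 and 1.22 in the same order. For Hoxc6 the values were -0.09 and 1.54, so that its difference between the regions depended on which arrays were compared. Hoxc10 passed the limma test in each of 19 alternative settings, where the adjusted p lay between 0.000453 and 0.0345. It did not pass between the 3 arrays of narrower spread (2.77, limma adjusted p = 0.813), where 2 arrays stood against 1.

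Between hindlimb and head all 9 HoxC differences were positive, but that of Hoxc13 (0.13) had the opposite sign under quantile (-0.003) and cyclic loess (-0.006) normalization. The 9 genes had a median of 1.10, against 0.04 over all genes. Hoxc10 passed (4.0, SE 0.31, limma adjusted p = 0.00249), 1 of 9 HoxC genes, where 0.00902% of all genes were called higher. With masseter left out it differed by 3.88 and did not pass (adjusted p = 0.119), while the other 18 of 19 alternative settings kept the call, with adjusted p from 0.00066. In 8 of 9 genes every hindlimb array lay above both head arrays, against 11.4% of all genes, with Hoxc12 the exception. The 8 include Hoxc5 and Hoxc13, which were below the median of the array in 9 of 9 arrays. For these genes the lowest hindlimb array exceeded digastric by only 0.0137 (Hoxc5) and 0.0225 (Hoxc13). Hoxc8 differed by 1.14 (SE 0.18, adjusted p = 0.198) and passed only without soleus (1.24, adjusted p = 0.0455). Further differences that did not pass were 1.72 for Hoxc6 (SE 0.42), 1.25 for Hoxc9 (SE 0.26), 1.10 for Hoxc11 (SE 0.21) and 0.60 for Hoxc4 (SE 0.19). For these 4 genes and Hoxc8, as for Hoxc10, the 95% interval lay above 0. Without adjustment 1208 genes were higher and 1439 lower at p under 0.05 by limma, 6 of the 9 HoxC genes among the former.

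**Figure D3:**
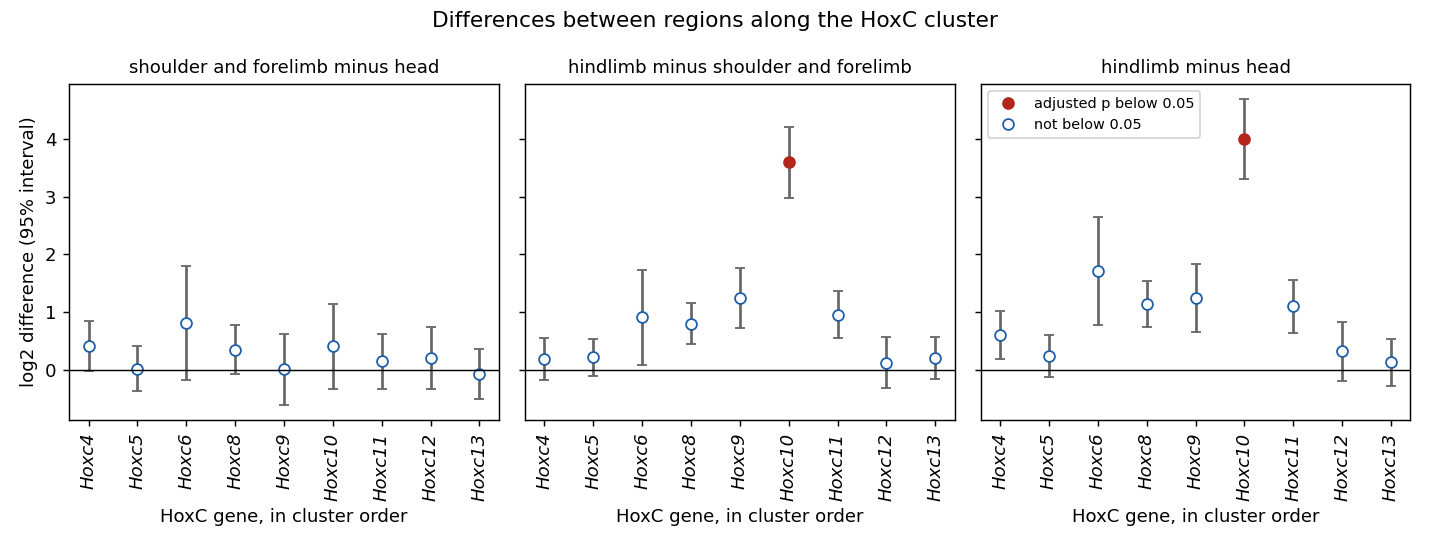
Log2 differences between regions (y axis) for each HoxC gene in cluster order (x axis), with 95% intervals from limma; filled red points have an adjusted p below 0.05. The largest difference is at Hoxc10 in the 2 panels that involve the hindlimb (3.60 and 4.0), and no gene passes between shoulder and forelimb and head.

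The noncoding genes of the cluster were measured near background. Mir196a-2, between Hoxc10 and Hoxc9, was at 2.61 in masseter and 3.19 in digastric, at 2.86 in trapezius, 2.82 in supraspinatus and 2.42 in triceps, and at 3.01 in rectus femoris, 3.33 in tibialis anterior, 2.99 in soleus and 3.23 in gastrocnemius. The hindlimb arrays lay above the 3 shoulder and forelimb arrays by a mean of 0.44 (SE 0.19, 95% interval 0.03 to 0.85, limma adjusted p = 1), and digastric lay among them. Triceps, which had the highest Hoxc10 value outside the hindlimb, had the lowest Mir196a-2 value. A probe set for a microRNA gene on a whole-transcript array reads the hairpin or its host transcript and not the mature sequences shown above. Mir615, within Hoxc5, was at 2.41 in digastric and from 3.06 to 3.72 in the other 8 arrays, with 3.40 in masseter.

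Hotair, known for its proposed action with Polycomb proteins on the HoxD cluster, was at 4.10 in soleus. The other 8 arrays lay between 2.54 in digastric and 3.08 in tibialis anterior, so that soleus stood apart by 1.02. Soleus was also the highest array for Hoxc11 and Hoxc13. With 1 soleus array, no spread stands beside this value. The Hotair difference between hindlimb and shoulder and forelimb was 0.41 (SE 0.30, 95% interval -0.25 to 1.07, limma adjusted p = 1).

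Genes beside the cluster were looked at as a list. Of 11 listed genes in the flanking region 10 were measured. For 0 of them did every hindlimb array lie above, or below, every shoulder and forelimb array. Over all 22180 genes this held upwards for 514 and downwards for 511, and at such shares a list of 10 often holds 0. Of the 10 flanking genes 0 passed the limma threshold. Their median difference was 0.01, from -0.72 for Zfp385a to 0.37 for Itga5. Smug1 and Cbx5, the nearest coding genes beyond Hoxc4, differed by -0.10 and 0.06, and Calcoco1, the nearest beyond Hoxc13, by -0.01.

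The genes of the other Hox clusters were set beside these values. Between hindlimb and shoulder and forelimb, 0 of 9 HoxA, 0 of 10 HoxB and 0 of 8 HoxD genes had arrays that did not overlap upwards. This held for 2.32% of all genes, and at that share lists of this size often hold 0. In each of these 3 clusters 0 genes passed the limma test, where 0.00451% of all genes were called higher. Median differences were -0.11 for HoxA, -0.02 for HoxB and 0.19 for HoxD, beside 0.80 for HoxC and -0.01 over all genes. For 7 of 9 HoxA genes every shoulder and forelimb array lay above both head arrays, and the median HoxA difference was 0.74. The same held for 4 of 10 HoxB, 3 of 9 HoxC and 1 of 8 HoxD genes. It held for 15.2% of all genes, whose median was 0.04. These 2 comparisons share the shoulder and forelimb arrays, and the difference between clusters was not tested. The direct paralogues of Hoxc10 differed between hindlimb and shoulder and forelimb by 0.41 (Hoxa10) and 0.54 (Hoxd10), and those of Hoxc9 by 0.21 (Hoxa9), 0.25 (Hoxb9) and 0.16 (Hoxd9). Neither paralogue of Hoxc10 passed, and the part of their messages in the Hoxc10 signal was not tested.

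**Figure D4:**
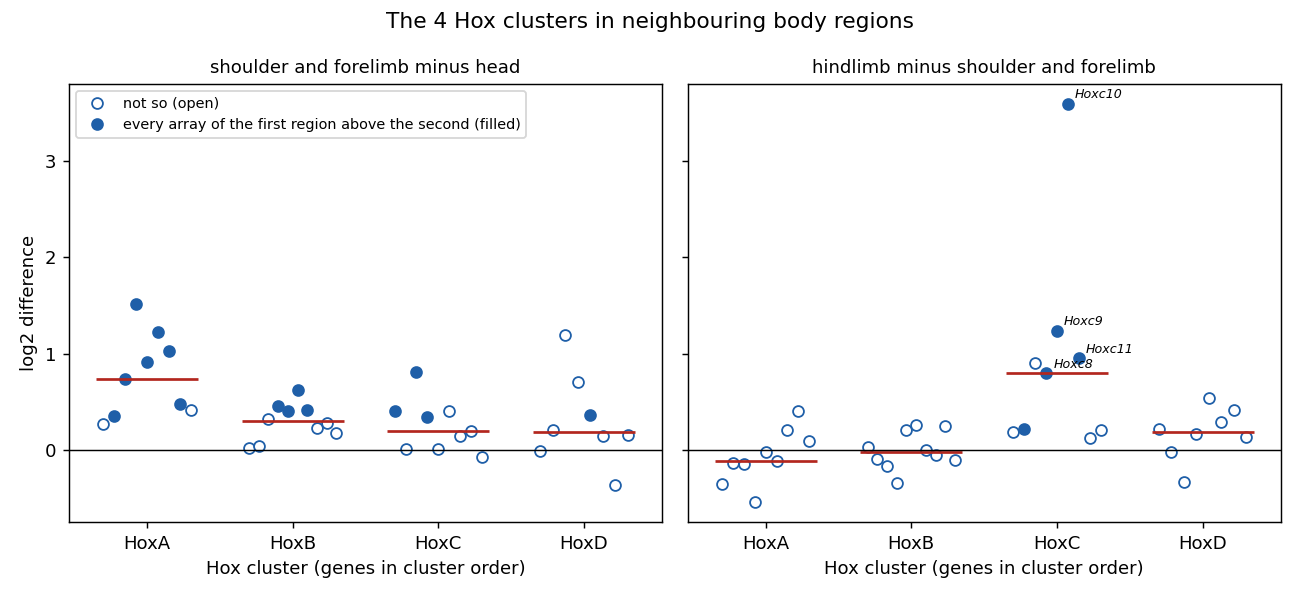
Log2 differences (y axis) of all measured genes of the 4 Hox clusters (x axis) for shoulder and forelimb minus head and for hindlimb minus shoulder and forelimb; red lines are medians, and filled points are genes with every array of the first region above every array of the second. In the right panel 5 HoxC genes are filled, led by Hoxc10 at 3.60, and no gene of the other clusters. In the left panel 7 of 9 HoxA genes are filled. Over all genes the share that meets this rule is 2.32% for the right panel and 15.2% for the left.

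Genes that work with Hox proteins or act upstream of them were compared as lists. HOX cofactors of the Meis, Pbx and Pknox families, which bind DNA together with Hox proteins, had a median difference between hindlimb and shoulder and forelimb of -0.03 over 8 measured genes, from -0.46 for Pbx2 to 0.24 for Pbx4. Among 9 upstream regulators, including the Cdx genes and the ligand gene Gdf11, the median was -0.04. The limb identity genes were at -0.02 for Pitx1, which directs hindlimb identity in the embryo, 0.26 for Tbx4, -0.16 for Tbx5 and 0.20 for Isl1. In these 3 lists 0 genes passed the limma test, which 1 of all 22180 genes passed. The lists held 0 genes without overlap between the regions. Over all 22180 genes the hindlimb arrays lay above without overlap for 514 and below for 511. At such shares short lists often hold 0.

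Markers of other cell types were compared beside the HoxC values, since Hox genes of this cluster are also expressed in fat and connective tissue. The mean log2 level of 7 white adipocyte markers was 7.82 in trapezius and 5.05 to 6.26 in the other 8 arrays. Of the 7, Car3 was at 11.30 in trapezius and 10.16 to 11.34 in hindlimb arrays, while Adipoq was at 6.67 and 3.46 to 4.34. The mean is therefore not a measure of fat alone. The 4 brown adipocyte markers had a mean of 8.38 in trapezius, 5.93 in supraspinatus, 4.72 in triceps and 4.38 to 5.15 in hindlimb arrays. The 6 tendon markers had a mean of 6.27 to 7.27 in hindlimb and 4.62 to 6.15 in shoulder and forelimb arrays, and 3 of the 6 genes were higher in the hindlimb without overlap, against 2.32% of all genes. In the head arrays the tendon mean was 4.82 in masseter and 6.60 in digastric. Fibroblast markers had a mean of 8.81 to 9.32 in hindlimb and 8.87 to 9.40 in shoulder and forelimb arrays (5 genes), and satellite cell markers 4.38 to 4.95 and 4.53 to 4.71 (4 genes). The mean of 5 cartilage and bone markers was 3.90 to 4.82 in hindlimb and 3.53 to 4.52 in shoulder and forelimb arrays. The 4 myeloid markers had a mean of 6.74 in triceps and at most 5.98 in the other 8 arrays. The 6 salivary gland markers had a mean of 3.24 to 3.89 in head and 2.59 to 2.86 in hindlimb arrays. Of the 6, Klk1 was at 7.28 in masseter and 0.91 in digastric, and 2 were on average higher in hindlimb than in head arrays. The part of other cell types in the HoxC differences was not tested.

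Hoxc6, Hoxc8, Hoxc9, Hoxc10 and Hoxc11 were the 5 HoxC genes with a range of at least 1. The genes most like each of them over the 9 arrays were ranked by Pearson's r. The ranking covered the 5817 genes with such a range that remained after predicted-gene, RIKEN, microRNA, pseudogene and similar symbols were removed. This describes 9 arrays that differ in many other ways and carries no test. The 3 genes most like Hoxc10 were its neighbours Hoxc11 (r = 0.937), Hoxc9 (r = 0.933) and Hoxc8 (r = 0.921), followed by the potassium channel gene Kcnj9 (r = 0.885) and Zfp956 (r = 0.884). Hoxc10 was in turn the gene most like Hoxc9 and Hoxc11, and the 4th most like Hoxc8 after Kcnj9 (r = 0.960), Cdh22 (r = 0.952) and Rhbdl1 (r = 0.924). The 5 genes most like Hoxc6 were Olfr714 (r = 0.913), Lhfpl2 (r = 0.911), Nxpe5 (r = 0.896), Sox9 (r = 0.886) and Ccdc153 (r = 0.883). Among HoxC genes its r was 0.849 with Hoxc9, 0.820 with Hoxc11, 0.797 with Hoxc10 and 0.71 with Hoxc8. The 6 pairs among Hoxc8, Hoxc9, Hoxc10 and Hoxc11 had r from 0.824 to 0.937, while the 8 pairs with Hoxc12 ran from -0.128 to 0.663. Adjacent probe sets were not always alike, with r = 0.367 for Hoxc11 and Hoxc12 and 0.937 for Hoxc10 and Hoxc11. Hoxc12 had a range of only 0.964 and exceeded its array median by at most 0.857. The part of background and array spread in its r was not tested.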

How the data were processed

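The authors hybridised biotin-labelled cDNA from RNA of frozen muscle to GeneChip whole-transcript arrays, per the labels' protocols. The deposited table gives 1 value per probe set and array on a log2 scale, a scale inferred from the range of the values (0.12 to 13.49). Per the submitters' processing notes the authors used GCRMA (no version given), a method for background correction, normalization and summary of probes. Genome build and detection calls are not given in the sources used here.

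Of 41345 probe sets, 23521 named 1 gene, and symbols were updated through Entrez identifiers for 23328. For genes with several probe sets the one with the highest mean was used. All 9 arrays entered 1 limma 3.58.1 fit (R 4.3.3; lmFit, eBayes, 6 residual degrees of freedom), tested on simulated data, with two-sided contrasts and Benjamini-Hochberg adjustment over 22180 genes at 0.05. The residual SD of a gene is that of this fit before moderation. Members, lists and tests were chosen with earlier results of these data known. Genes named were the HoxC genes, listed genes and markers, and genes past the threshold. To these were added the 5 most similar to each HoxC gene with a range of at least 1. That ranking left out predicted-gene, RIKEN, microRNA, small nucleolar RNA, mitochondrial, pseudogene, clone and similar symbols. Alternatives were 3 other normalizations, a filter on dim genes, averaged probe sets, trend with robust variance, only the groups compared, trapezius counted with head, the spread of the arrays, and each array left out. The number of arrays limits the precision.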

Additional observations from a re-analysis of the deposited data

Results flagged for a closer look

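Hoxc13 in soleus, at 3.34, stood apart from the other 3 hindlimb arrays (3.07 to 3.10) by more than the 95% critical value of Dixon's test, with a gap to them of 0.888 of the range. Chance marks about 1 in 20 such groups, and 12 genes of the cluster were examined in the hindlimb group. The value is below the median over all probe sets of the soleus array.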

How the results depend on the processing

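Between hindlimb and head 2 genes passed over all genes, and 1 with median centring, trend and robust variance, only the arrays compared, trapezius counted with head, a term for array spread, or only the arrays of wider spread. With 1 array left out the count ran from 0 (without masseter) to 19 (without soleus). Between shoulder and forelimb and head it ran from 0 to 4 (without digastric). The count for hindlimb against shoulder and forelimb was 1 in each of the 19 settings, and Hoxc10 did not pass between the 3 arrays of narrower spread (2.77, limma adjusted p = 0.813). Differences near 0 changed sign. Hoxc13 between hindlimb and head was -0.003 with quantile and -0.006 with cyclic loess normalization. Hoxc12 between hindlimb and shoulder and forelimb was -0.072 in arrays of wider spread, and from -0.03 (without gastrocnemius) to 0.218 with 1 array left out. In arrays of narrower spread Hoxc6 was -0.086 and Hoxc13 -0.017. Between shoulder and forelimb and head, Hoxc5 was -0.037 with median centring, -0.055 with quantile, -0.054 with cyclic loess, -0.01 with the spread term and -0.048 in arrays of wider spread, and from -0.198 to 0.233 with 1 array left out. Hoxc9 was -0.046, -0.06 and -0.044 with the 3 normalizations, -0.05 with trapezius counted with head and -0.095 in arrays of wider spread, and from -0.105 to 0.145 with 1 array left out. Hoxc11 was -0.004 in arrays of wider spread and from -0.004 (without triceps) to 0.299 with 1 array left out, and Hoxc13 from -0.165 to 0.091 (without supraspinatus). Unless the setting itself removes arrays, the cause was not tested. No paired analysis was possible because the labels give no replicate numbers. The filter on dim genes left no value for Hoxc5, Hoxc6, Hoxc8, Hoxc11, Hoxc12 and Hoxc13. A lone head array, where the other was left out, was assumed to vary like the other groups.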
